A study of Mus musculus with 16 samples.

Results

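The comparison described here set mouse embryonic stem cells (ESCs) without Dnmt1 and Dicer against ESCs without Dnmt1 alone, so that both groups lacked the DNA methyltransferase and Dicer was the difference. It used 8 of the 16 total RNA-seq libraries, and 12578 of the 26127 genes in the deposited table were tested, namely those above 1 RPM, the unit of reads scaled to the size of a library, in at least 4 of these 8 libraries.

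The Dicer/Dnmt1 KO group held 4 libraries of genotype Dicer/Dnmt1 -/- and the Dnmt1 KO group held 4 libraries of genotype Dnmt1-/-, whose titles mark them as the Dicer control. In each group the libraries were titled 1A, 1B, 2A and 2B, and values are given below in that order. A further 8 libraries of wild-type cells (WT) were used for levels and, in 1 alternative fit, for the estimate of the spread. ESCs are cells of the early embryo that divide without limit in culture and can form all tissues of the body, and total RNA-seq counts the fragments of all RNA left after removal of ribosomal RNA.

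Several facts limit these groups as models of Dicer loss. The study's methods describe Dnmt1 loxP/loxP ESCs in which Cre is switched on by 4-hydroxytamoxifen, and derived lines made with CRISPR/Cas9 and grown from sorted single cells, so that a line was 1 clone. Which clone each library came from, the day after Dnmt1 deletion, and whether Dicer was deleted together with Dnmt1 or before it were not in the labels of these libraries, and the strain was E14 in the labels but C57BL/6 in the methods. Nothing says that the letters or the numbers were separate cultures, so that all p-values measured only the spread between these libraries, which may be technical.

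DICER is the RNase that cuts hairpin precursors into mature microRNAs and long double-stranded RNA into small interfering RNAs. A microRNA guides an Argonaute protein, with its GW182 partner, to messenger RNAs that pair with bases 2 to 8 of the microRNA, its seed, and those messengers are repressed and broken down. In ESCs the miR-290 family, which shares its seed with the miR-302 family, and the miR-17 family make up a large part of the microRNAs and act on inhibitors of the passage from G1 to S phase, whereas let-7 is kept low by LIN28 until differentiation.

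The seeds of these families are shown because the genes are sorted by them further on. The mature sequences below are those of RefSeq (build GRCm38.p6), written 5′ to 3′ with the seed in capitals. The members of the miR-290 family and miR-302b share a seed, and matches to it are called miR-290 matches. The miR-17 members share a seed that is the same run of letters moved by 1 base. The families of let-7 and miR-15/16 have unrelated seeds.
mmu-miR-294-3p: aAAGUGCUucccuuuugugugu
mmu-miR-295-3p: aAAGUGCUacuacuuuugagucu
mmu-miR-302b-3p: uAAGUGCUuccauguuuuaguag
mmu-miR-17-5p: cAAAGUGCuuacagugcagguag
mmu-miR-20a-5p: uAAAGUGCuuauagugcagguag
mmu-let-7a-5p: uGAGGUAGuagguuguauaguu
mmu-miR-16-5p: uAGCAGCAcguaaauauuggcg
The miR-294 sequence lies at chr7:3220691-3220712 and miR-302b at chr3:127545275-127545297, while miR-17 lies at chr14:115043684-115043706, all on the plus strand of GRCm38.p6. These small RNAs themselves were not measured in the libraries used here.

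A messenger that can pair with a seed carries its reverse complement in the 3′ UTR, which is AGCACTT for miR-290 and GCACTTT for miR-17. The 2 strings overlap by 6 letters, so that a run of AGCACTTT is a match to both. The sites below are in genes chosen among those that were higher in Dicer/Dnmt1 KO. They are given in NCBIM37 coordinates and read along the transcript, with the match in capitals.
Cdkn1a, chr17:29236762-29236783, plus strand, both families: cagacctgaatAGCACTTTgga
Cdkn1a, chr17:29237434-29237454, plus strand, miR-290: gtgggtgtcaaAGCACTTagt
Lefty1, chr1:182868333-182868353, plus strand, miR-290: actgtatgcgaAGCACTTaca
Lefty2, chr1:182828037-182828057, plus strand, miR-290: cacccagtttaAGCACTTaca
Rbl2, chr8:93647718-93647738, plus strand, miR-290: tttttcaataaAGCACTTata
Ei24, chr9:36587471-36587491, minus strand, miR-290: gctgtttttttAGCACTTgcc
Casp2, chr6:42231546-42231566, plus strand, miR-290: tataacctagaAGCACTTgtc
Eif2c1, chr4:126115771-126115791, minus strand, miR-17: cattgacatttGCACTTTcag
Tnrc6a, chr7:130337122-130337142, plus strand, miR-17: ggacgggccctGCACTTTgaa
Lrrc31, chr3:30583125-30583146, minus strand, both families: tcaggtaagccAGCACTTTgtg
Genes that were lower in Dicer/Dnmt1 KO could hold a match too. Nras, Ldha and Lef1 held miR-290 matches, and Dab2 and Bid held miR-17 matches. A match of this kind describes the letters of the annotated 3′ UTR and does not show that a microRNA bound there.

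The libraries held 31.5 to 41.6 M reads, of which 44.2 to 48.1% lay in genes, and 3 reads corresponded to 0.0722 to 0.0954 RPM. Libraries of the same number in a group differed less, with an SD over genes of 0.214 to 0.243 on the log2 scale, than libraries of different numbers, at 0.286 to 0.345, so that A and B of a number were averaged and each group entered the test with 2 values. WT libraries differed more among themselves, with SDs up to 0.353 within a number and up to 0.745 between numbers. Both Dnmt1 KO libraries of number 1 stood apart in their relation to transcript length, which is described at the end, and results that change by the choice of control are given beside the values they touch.

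Dicer1 was lower in every Dicer/Dnmt1 KO library. Its level was 3.92, 3.83, 3.68 and 4.06 log2 RPM in Dicer/Dnmt1 KO and 5.28, 5.32, 5.68 and 5.56 in Dnmt1 KO, and in WT it ran from 4.56 to 5.68 with a median of 5.43. The fall was 3.02-fold (log2 fold change -1.59 ± 0.15 SE, limma with Benjamini-Hochberg adjustment, adjusted p = 1.98e-06). An exact two-sided permutation test over libraries gave p = 0.0286 (n = 4 and 4) and over the averaged numbers p = 0.333 (n = 2 and 2), each the smallest that its design allows. Reads of the whole gene were counted, so that a shortened Dicer1 transcript still adds to these levels. Dnmt1 was at 4.49, 4.62, 4.53 and 4.64 in Dicer/Dnmt1 KO and 4.35, 4.17, 4.63 and 4.44 in Dnmt1 KO. In WT, Dnmt1 ran from 5.55 to 7.66 with a median of 7.48. The groups without Dnmt1 overlapped (log2 fold change 0.17 ± 0.15, limma adjusted p = 0.421).

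Across the transcriptome, 3394 of 12578 genes, or 27.0%, passed limma with an adjusted p under 0.05. Of these, 1758 (14.0%) were higher and 1636 (13.0%) lower in Dicer/Dnmt1 KO. Most of the changes were small, with a median of 1.65-fold among the higher genes and 1.54-fold among the lower ones. A change of 2-fold or more was met by 383 higher and 188 lower genes, and 4-fold or more by 18 and 7. The levels of the groups did not overlap for 5511 genes, or 43.8% of those tested, and for 3270 of the genes called. Long intergenic RNAs made up 167 of the genes tested, of which 22 rose and 33 fell. With every library taken as a replicate of its own 6012 genes were called. When WT libraries joined the estimate of the spread 1212 were, 676 higher and 536 lower. A fit against 1 Dnmt1 KO number alone holds 1 averaged control value, so that it does not measure the spread between controls. Only sizes of change are given from such fits. The median log2 fold change over all genes was -0.04 against number 1 alone and 0.02 against number 2 alone.

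The 12 largest rises and 12 largest falls given here were taken only from called genes whose groups did not overlap. The 12 largest rises were between 5.01-fold and 13.7-fold. Hhip, a membrane protein that binds and holds back Hedgehog ligands, was at 2.32, 2.00, 2.45 and 2.62 log2 RPM in Dicer/Dnmt1 KO and at -1.04, -2.21, -0.89 and -1.58 in Dnmt1 KO. It rose 13.7-fold (log2 fold change 3.78 ± 0.27, limma adjusted p = 1.76e-07), and in WT its median was -3.61. Fat2, an atypical cadherin, was at 4.50, 4.43, 4.52 and 4.57 against 0.87, 0.32, 1.31 and 1.09, a rise of 12.2-fold (limma adjusted p = 5.85e-09), with a WT range of -2.75 to 0.18. The groups were apart for both genes, which the selection required. Msln, the surface protein mesothelin, stood at 5.35, 5.38, 5.62 and 5.70 against 2.84, 2.66, 2.59 and 2.87, which was 6.83-fold higher (limma adjusted p = 5.85e-09).

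Klf2, a transcription factor of the naive pluripotent state, measured 5.54, 5.55, 5.33 and 5.40 log2 RPM in Dicer/Dnmt1 KO and 2.98, 3.10, 3.05 and 3.17 in Dnmt1 KO. Its rise was 5.20-fold (limma adjusted p = 2.25e-08), and all 4 Dicer/Dnmt1 KO values lay above the WT maximum of 3.32. Gad1, which makes the transmitter GABA, was at 2.81, 2.87, 3.10 and 3.07 against 0.39, 1.18, 0.07 and 0.60, or 5.29-fold higher (limma adjusted p = 1.55e-06). The groups were apart for both, which the selection required. Lrrc31, whose 3′ UTR holds the site shown above, was at 1.70, 1.95, 1.69 and 1.98 against -1.87, -0.25, -1.89 and -1.87, a 9.84-fold difference (limma adjusted p = 1.87e-06). Its WT range of 1.11 to 1.93 was also above all Dnmt1 KO values. The other genes of this group were Napsa (an aspartic protease, 8.75-fold), Lax1 (a lymphocyte adaptor, 6.35-fold), Rfx4 (a transcription factor of brain, 6.10-fold), Mobp (a myelin protein, 5.51-fold), Aldh3b2 (an aldehyde dehydrogenase, 5.24-fold) and Ubd (a ubiquitin-like modifier, 5.01-fold). Napsa came down to 3 reads in Dnmt1 KO 2B, so that its fold rests on few reads. Lax1 lost its call when WT joined the fit.

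The 12 largest falls were between 3.20-fold and 5.26-fold. Fgf5, a growth factor that marks the epiblast after implantation, was at -0.51, -0.41, -0.80 and -0.73 log2 RPM in Dicer/Dnmt1 KO and 1.67, 1.47, 1.53 and 1.51 in Dnmt1 KO. It fell 4.46-fold (log2 fold change -2.16 ± 0.26, limma adjusted p = 2.40e-05) to below the lowest WT library at 0.66. Vrtn, known for its part in the number of vertebrae, measured -0.51, -1.18, -1.80 and -1.81 against 0.74, 1.07, 1.63 and 0.84, and it was 5.26-fold lower (limma adjusted p = 8.04e-05). No library of one group reached the other for these genes, which the selection required. Car2, a carbonic anhydrase, had the smallest SE of the 12 (0.15), at 4.44, 4.38, 4.63 and 4.55 against 6.48, 6.38, 6.18 and 6.15 (3.47-fold lower, limma adjusted p = 5.64e-07). In WT it ran from 3.47 to 5.02, around the Dicer/Dnmt1 KO values.

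Myc, the transcription factor of growth and the cell cycle, was at 2.28, 1.89, 1.06 and 1.65 log2 RPM in Dicer/Dnmt1 KO and 3.15, 3.32, 3.83 and 3.45 in Dnmt1 KO, a fall of 3.28-fold (limma adjusted p = 4.50e-05). Its WT libraries, from 1.24 to 2.08, lay below all Dnmt1 KO values. Also lower were Wnt8a (a WNT ligand of gastrulation, 4.35-fold), Slc6a14 (an amino acid transporter, 4.15-fold), Nlrp4c (an oocyte NLRP protein, 3.87-fold), Hist1h2aa (a histone variant of testis, 3.70-fold) and Sox7 (a transcription factor of primitive endoderm, 3.68-fold). Pde2a (a phosphodiesterase) fell 3.51-fold, Sycp1 (a synaptonemal complex protein) 3.36-fold and Fndc3c1 3.20-fold. Many of these genes were near the filter on low levels, and without that filter 6 of the 12 largest rises and 9 of the 12 largest falls were no longer called. Hhip, Lrrc31, Napsa, Lax1, Rfx4, Mobp, Vrtn, Fgf5 and Nlrp4c were above 1 RPM only in the higher group and passed that filter through it. So did Amn, Cdx2 and Slc25a31, which are named further on.

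**Figure D1:**
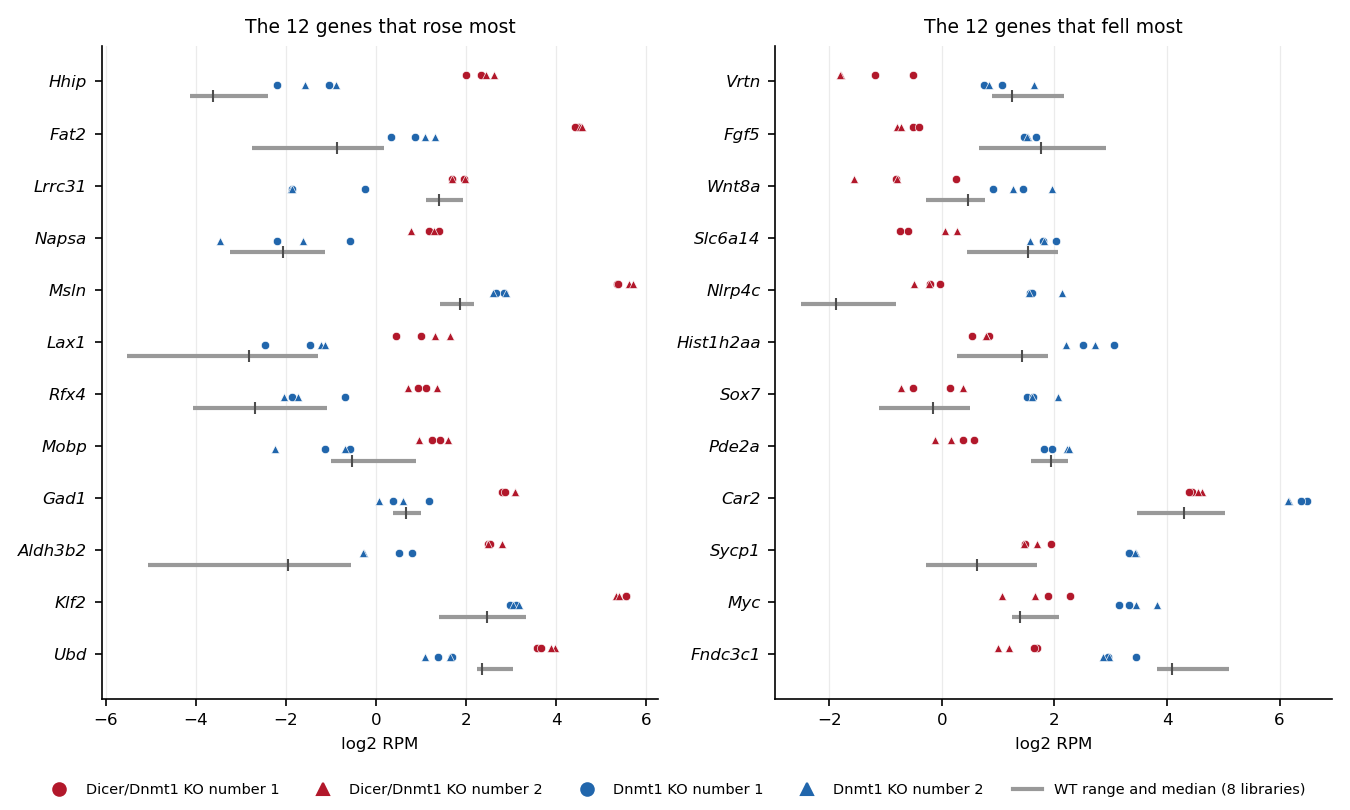
Levels (log2 RPM, horizontal axis) of the 12 largest rises and the 12 largest falls, with a point for each Dicer/Dnmt1 KO and Dnmt1 KO library and a grey bar for the range and median of the 8 WT libraries. The points of both groups are apart for all 24 genes because only such genes were chosen. The difference of means on the log2 scale is widest for Hhip (3.78) and Fat2 (3.61).

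Of 21 microRNA pathway genes tested, 5 rose and 3 fell including Dicer1 (14.0 and 13.0% over all genes), and 13 did not pass. The median log2 fold change was 0.12 beside -0.01 over all genes. With the relation to transcript length removed, 4 were higher and 4 lower and the median turned to -0.05. The genes that rose all coded for the effector complex. Eif2c1, the Argonaute AGO1, was at 6.47, 6.53, 6.19 and 6.33 log2 RPM in Dicer/Dnmt1 KO and 4.62, 4.68, 5.14 and 5.07 in Dnmt1 KO (2.83-fold higher, limma adjusted p = 6.93e-06). Tnrc6a, a GW182 scaffold that ties Argonaute to decay enzymes, was at 6.64, 6.71, 6.58 and 6.54 against 5.10, 5.23, 5.33 and 5.22 (2.63-fold higher, limma adjusted p = 2.88e-06). The groups did not overlap for either gene, and the 3′ UTRs of both hold a miR-17 match. The other GW182 genes rose as well, Tnrc6b by 2.31-fold and Tnrc6c by 1.75-fold (limma adjusted p = 2.91e-05 and 0.001). Eif2c2, the Argonaute AGO2, was called by a narrow margin with groups that overlapped (log2 fold change 0.50, limma adjusted p = 0.0471), while Eif2c3 (0.30) and Eif2c4 (0.12) were not.

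Lin28a, the RNA-binding protein that blocks let-7 processing, fell in every library. It was at 6.20, 6.20, 5.96 and 6.03 log2 RPM against 7.25, 7.29, 7.30 and 7.24, a fall of 2.26-fold (limma adjusted p = 1.75e-05), with WT at 7.25 to 7.64. Tarbp2, the partner of DICER in its complex, was lower with a log2 fold change of -0.75. The nuclear processing genes Drosha (0.13) and Dgcr8 (0.05), the export factor Xpo5 (-0.26) and Lin28b (0.09) did not pass the test. When WT joined the fit 3 genes of the list were higher and 3 lower (676 and 536 of all 12578 genes).

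Of 16 tested miR-290 family targets, from a list of 18, 11 rose and 1 fell (14.0 and 13.0% over all genes). The median log2 fold change was 0.58. The list came from general knowledge of this family and was chosen with earlier results of these libraries known. Lefty1, a secreted inhibitor of NODAL, was at 8.41, 8.33, 8.46 and 8.38 log2 RPM in Dicer/Dnmt1 KO against 7.21, 6.92, 6.94 and 6.79 (2.70-fold higher, limma adjusted p = 3.91e-06). Cdkn1a, the p21 inhibitor of cyclin-dependent kinases, was at 6.02, 6.14, 5.92 and 5.77 against 4.90, 4.92, 4.85 and 4.76 (2.15-fold higher, limma adjusted p = 3.55e-05). Rbl2, the pocket protein p130 that holds cells out of S phase, measured 3.61, 3.63, 3.80 and 3.87 against 2.66, 2.55, 2.22 and 2.59 (2.34-fold higher, limma adjusted p = 7.49e-05). All 3 genes had every Dicer/Dnmt1 KO library above every Dnmt1 KO and WT library.

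Smaller rises were seen for Ei24, a gene of the p53 response (1.86-fold), Lefty2 (1.63-fold) and the protease Casp2 (1.62-fold), each with a miR-290 match shown above. Lefty1 and Lefty2 are close copies of each other, and reads that fit both could be lost or split. Wee1, Arid4b, Lats2, Rhoc and Mbd2 rose by 0.62, 0.63, 0.55, 0.53 and 0.52 on the log2 scale, and Tgfbr2 (0.53), Akt1 (0.38), Rela (0.34) and Fbxl5 (0.14) did not pass. Dkk1, a WNT inhibitor, went the other way, at 1.07, 0.59, 0.91 and 0.61 log2 RPM against 2.07, 2.02, 2.08 and 2.03 (2.39-fold lower, limma adjusted p = 0.000481). The annotated 3′ UTR of Dkk1 used here held no match to either seed. With WT in the fit, 7 of the targets were higher and 0 lower (676 and 536 of all 12578 genes).

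**Figure D2:**
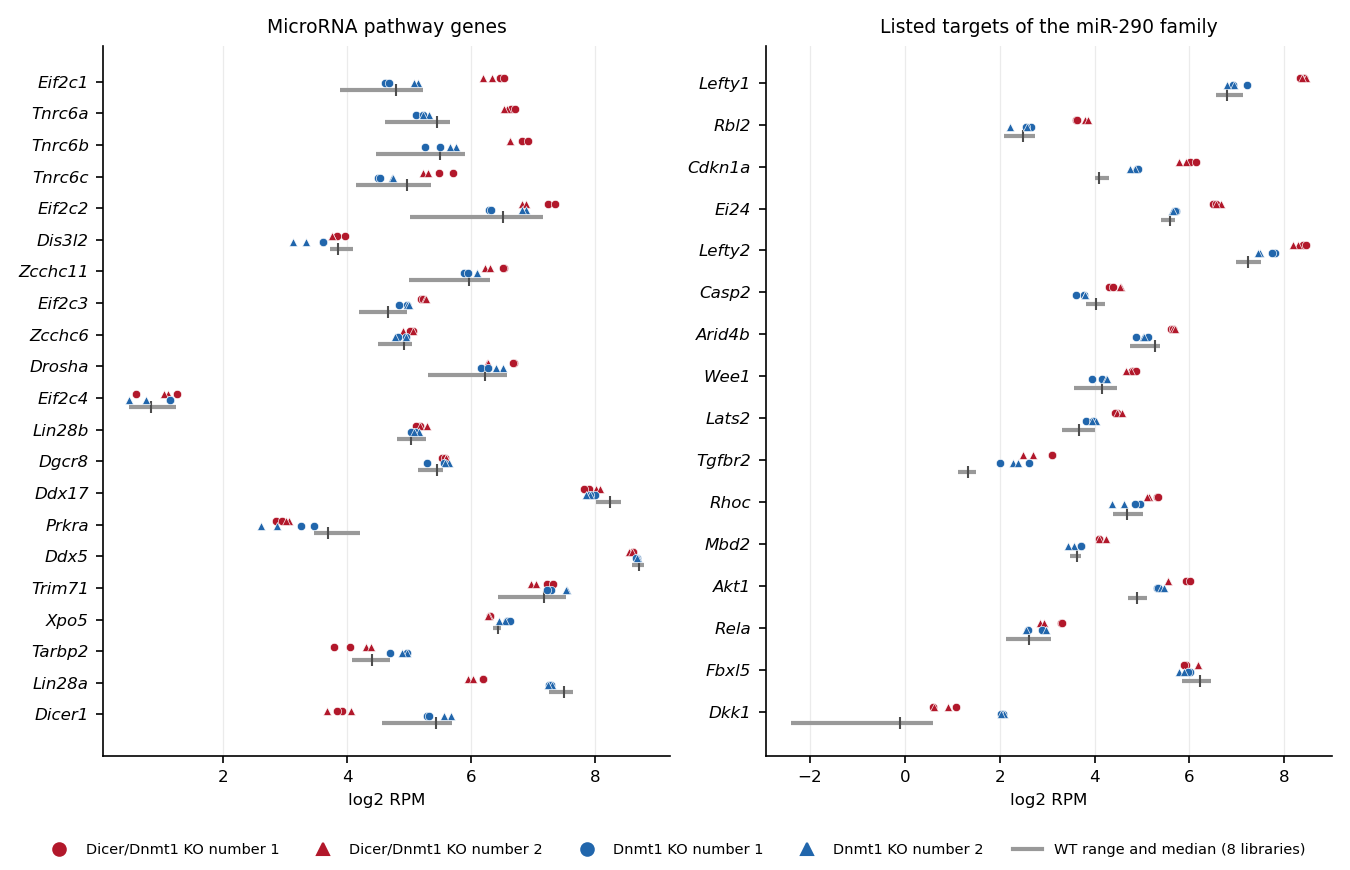
Levels (log2 RPM) of genes of the microRNA pathway and of miR-290 family targets in each Dicer/Dnmt1 KO and Dnmt1 KO library, with the range and median of WT in grey. Tnrc6a, Eif2c1, Lefty1 and Cdkn1a are higher in all 4 Dicer/Dnmt1 KO libraries, and Dicer1, Lin28a and Dkk1 are lower.

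The seed matches were then counted in all 12059 tested genes with an annotated 3′ UTR, along the transcript strand only. Genes without a miR-290 match had a median log2 fold change of -0.04 (10105 genes), those with 1 match 0.16 (1631 genes) and those with 2 or more 0.31 (323 genes). The share called higher was 11.3, 26.6 and 38.7%, and the share called lower 14.2, 7.11 and 4.02%. For miR-17 the medians were -0.04, 0.19 and 0.39 and the shares called higher 11.4, 28.3 and 43.8%. A miR-290 match was present in 16.2% of these UTRs, a miR-17 match in 13.9% and either in 22.5%. Among genes called higher 44.3% held either match, and among genes called lower 11.7% did.

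Genes with both kinds of match, which include those with the overlapping run AGCACTTT, had a median of 0.27 (915 genes). Those with a miR-290 match alone had 0.10 (1039 genes), those with a miR-17 match alone 0.16 (764 genes) and those with neither -0.06 (9341 genes). In single libraries, genes with a miR-290 match deviated from the mean of the 8 libraries by a median of 0.10, 0.11, 0.09 and 0.09 in Dicer/Dnmt1 KO and -0.10, -0.07, -0.09 and -0.10 in Dnmt1 KO. Deviations from a shared mean mirror each other between the groups by construction, and other families gave the same signs with smaller sizes, let-7 with 0.0059 to 0.077 in Dicer/Dnmt1 KO and -0.042 to -0.0054 in Dnmt1 KO, and miR-208 with 0.025 to 0.055 and -0.054 to -0.014.

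Longer 3′ UTRs hold more matches of any kind, and the change also rose with UTR length. Within 4 classes of UTR length (under 500, 500 to 999, 1000 to 1999, and 2000 bases or more) genes with a miR-290 match were above those without by 0.17, 0.19, 0.15 and 0.16, and genes with a miR-17 match by 0.25, 0.26, 0.23 and 0.15. The same differences for let-7 were 0.00, 0.06, -0.01 and 0.01, and for miR-15/16 they were 0.02, -0.02, -0.01 and 0.05. Of the other families abundant in ESCs, miR-25/92 gave 0.11, 0.16, 0.12 and 0.11, miR-19 gave 0.03, 0.16, 0.07 and 0.11, and miR-130 gave 0.11, 0.16, 0.12 and 0.09. The strings matched by miR-19 and miR-130 overlap in part, as do those of miR-130 and miR-17. The same letters can thus count for several families. The differences of miR-26, miR-21 and miR-200, also present in ESCs, lay between -0.05 and 0.06 in all classes. For miR-9, a family of brain, they lay between -0.02 and 0.07, and for miR-208, a family of heart with 10 to 140 matched genes a class, between -0.10 and 0.08. The medians for 2 or more matches, with no account of length, were 0.37 for miR-25/92, 0.26 for miR-19, 0.07 for let-7 and 0.09 for miR-15/16. No p-value is given for these differences, since genes are not replicates and share the libraries.

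**Figure D3:**
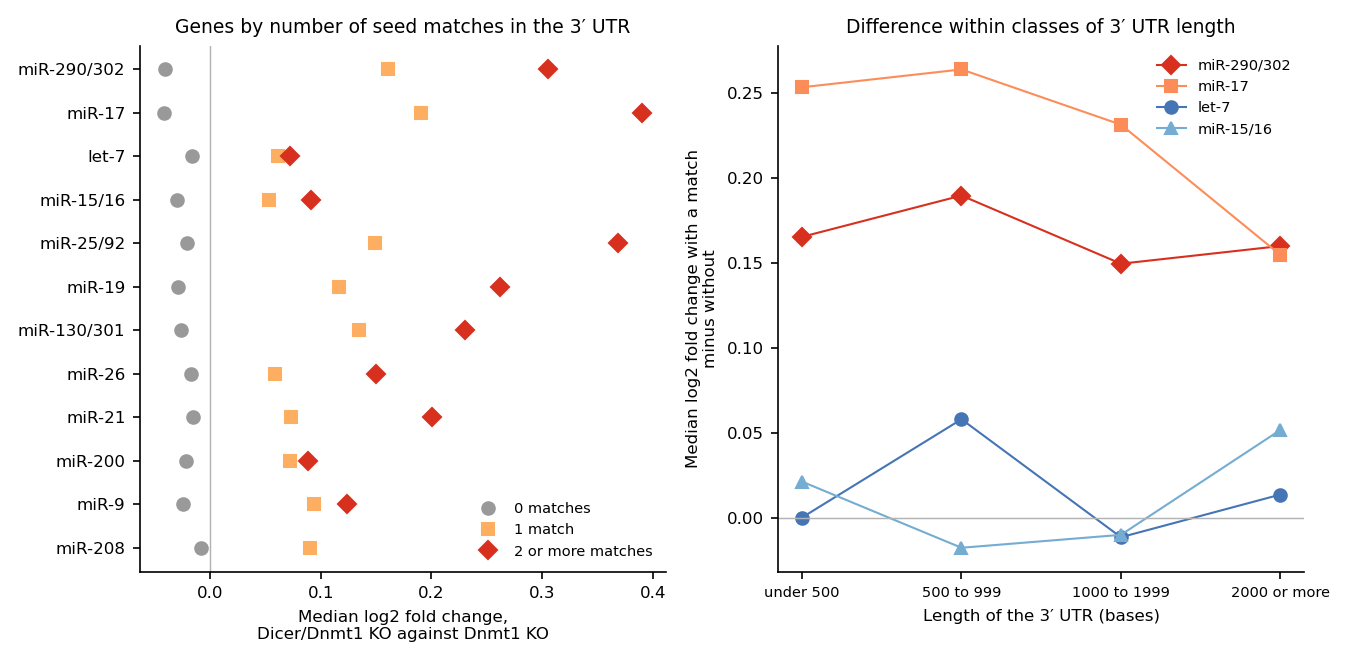
Left, median log2 fold change (Dicer/Dnmt1 KO against Dnmt1 KO) of genes with 0, 1 or 2 and more seed matches in the 3′ UTR for 12 microRNA families; right, median of genes with a match minus that of genes without, in 4 classes of 3′ UTR length, for 4 families. From 0 to 2 or more matches the medians on the left go from -0.04 to 0.31 for miR-290 (drawn together with miR-302) and to 0.39 for miR-17, and on the right both lines stay above 0 in every class while let-7 and miR-15/16 lie between -0.02 and 0.06.

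The 20 let-7 targets did not move one way, with 4 higher and 5 lower (14.0 and 13.0% over all genes). Igf2bp2, Arid3a, E2f5 and Igf2bp3 rose (log2 fold changes of 0.90, 0.80, 0.46 and 0.43), and 5 fell, namely Myc (-1.71), Lin28a (-1.18), Nras (-0.82), Cdc34 (-0.55) and Cdc25a (-0.45). The other 11 did not pass, among them Hmga2 (0.26), and the list median was 0.10. Igf2bp2, which binds and stabilises messengers, was at 5.80, 5.88, 5.57 and 5.53 log2 RPM against 4.83, 5.14, 4.63 and 4.59 (limma adjusted p = 0.00056). With WT in the fit 1 let-7 target was higher and 4 were lower (676 and 536 of all 12578 genes).

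Regulators of the passage from G1 to S phase moved in both directions, with a median of 0.10. Of 25 tested, 8 were higher and 3 lower (14.0 and 13.0% over all genes). The pocket protein genes, which hold E2F factors inactive, all rose, Rbl2 by 1.22, Rb1 by 0.62 and Rbl1 by 0.59 on the log2 scale. Of the kinase inhibitors Cdkn1a (1.11) and, narrowly, Cdkn1b (0.44, limma adjusted p = 0.0496) rose, and Cdkn1c (-0.03), Cdkn2a (-0.10), Cdkn2b (-0.18) and Cdkn2c (-0.29) did not pass. Also higher were Wee1 (0.62), E2f5 (0.46) and Ccne2 (0.77), and E2f4 (-0.44) and Cdc25a (-0.45) fell together with Ccne1. The cyclin E genes, which drive entry into S phase, went opposite ways: Ccne2 was at 4.81, 4.49, 4.72 and 4.82 log2 RPM against 4.04, 3.99, 3.87 and 3.87, and Ccne1 was at 6.40, 6.28, 6.22 and 6.22 against 6.98, 6.89, 6.97 and 6.88 (limma adjusted p = 0.00115 and 0.00217). The D cyclins Ccnd1 (0.32), Ccnd2 (0.14) and Ccnd3 (0.02) did not pass. The Rb1 locus contains an RNA on the same strand, Gm17233, whose reads cannot be told from its own. Once WT joined the fit, 4 of these regulators were higher and 1 was lower (676 and 536 of all 12578 genes).

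The ESC marker genes were present in all libraries, at a sum of 1899 to 2221 RPM in Dicer/Dnmt1 KO against 1749 to 2391 in Dnmt1 KO, with WT at 1863 to 3307. Of the 9, Nanog (0.73) and Sox2 (0.57) rose and Tdgf1 (-0.57) and Utf1 (-0.55) fell, while Pou5f1 (-0.18) and Zfp42 (-0.02) did not pass. Of all genes 14.0% were called higher and 13.0% lower. Nanog, a core pluripotency factor, was at 8.58, 8.66, 8.68 and 8.64 log2 RPM against 8.06, 8.25, 7.58 and 7.76 (limma adjusted p = 0.00423). Against Dnmt1 KO number 2 alone Tdgf1 was at -0.32 and Utf1 at -0.40, and against number 1 alone Sox2 was at 0.31. Single libraries ended a call, that of Tdgf1 without Dnmt1 KO 2B (limma adjusted p = 0.0532) and that of Utf1 without Dnmt1 KO 1B (0.0761). The Sox2 level includes reads of the overlapping same-strand RNA Sox2ot.

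Genes of the naive state, which resembles the epiblast before implantation, had a median log2 fold change of 0.31. Of 18 tested, 6 were called higher and 1 lower (14.0 and 13.0% over all genes). Prdm14, a transcriptional regulator of naive cells and the germ line, was at 4.25, 4.31, 4.13 and 4.32 log2 RPM against 2.85, 3.00, 2.35 and 2.69 (2.89-fold higher, limma adjusted p = 1.06e-05), above all WT libraries (2.38 to 3.55). Pecam1, an adhesion protein, was at 5.71, 5.78, 5.75 and 5.72 against 4.30, 4.45, 4.36 and 4.32 (2.61-fold higher, limma adjusted p = 3.33e-06). Klf2, Nanog, Fgf4 (0.45) and Nr5a2 (0.45) completed those that rose. Gbx2 was the exception at -0.96, and Esrrb (0.36), Klf4 (0.34) and Tbx3 (0.09) did not pass. The list median was 0.25 against Dnmt1 KO number 1 alone and 0.44 against number 2 alone. Nr5a2 was called by a narrow margin (limma adjusted p = 0.0481), which was lost without Dicer/Dnmt1 KO 1A (0.0603), 1B (0.0503) or 2A (0.0737) and without Dnmt1 KO 1A (0.1), 2A (0.0732) or 2B (0.0525).

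Genes of the primed state, that of the epiblast after implantation, went the other way, with a median of -0.99. Of 9 tested, 5 were lower (13.0% over all genes). Besides Fgf5, the transcription factors Pou3f1 and Otx2 fell: Pou3f1 from 3.82, 4.02, 3.91 and 3.71 log2 RPM in Dnmt1 KO to 2.08, 2.58, 2.29 and 2.15 (3.01-fold, limma adjusted p = 5.71e-06), and Otx2 from 1.79, 1.75, 1.49 and 1.30 to -0.08, 0.29, -0.01 and 0.35 (2.72-fold, adjusted p = 0.000479). In WT, Otx2 ran from 3.23 to 4.22, above both knockout groups. Lef1, a WNT effector, and Dnmt3b fell by 1.07 and 0.99 on the log2 scale. Zic2, a zinc finger factor, rose instead, at 2.96, 3.15, 3.03 and 2.93 against 1.62, 1.70, 1.31 and 1.56 (2.78-fold, limma adjusted p = 3.70e-05). Sox11 (0.11), Sox4 (0.02) and Dnmt3a (-0.16) did not pass.

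Of 15 primitive endoderm genes, which mark the extraembryonic lineage next to the epiblast, 0 rose and 7 fell (14.0 and 13.0% over all genes). Their median was -0.42. With the length relation removed 9 were lower and the median was -0.73. The transcription factors Sox7 (-1.88), Gata6 (-1.29) and Gata4 (-1.15) fell together with the endocytosis genes Amn (-1.67), Dab2 (-1.27) and Cubn (-1.19) and with Pdgfra (-0.54). Gata6 was at 1.62, 1.53, 1.61 and 1.36 log2 RPM against 2.52, 2.55, 3.04 and 3.18 (limma adjusted p = 0.000349). Cubn was at 5.04, 5.09, 4.83 and 5.19 against 5.93, 6.08, 6.49 and 6.43 (limma adjusted p = 3.93e-05). The basement membrane genes Lama1 (-0.42), Lamb1 (-0.26), Col4a1 (-0.06), Col4a2 (0.11) and Sparc (0.06) did not pass. The summed level of the 4 defining markers was 14.4 to 18.3 RPM in Dicer/Dnmt1 KO against 24.9 to 34.3 in Dnmt1 KO, with WT at 5.94 to 15.1. In bulk RNA such as this, fewer cells of a type and less RNA per cell cannot be told apart. In the fit with WT 2 genes of the list were lower, beside 536 of all 12578 genes.

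Other lineages gave few or mixed changes, beside 14.0% higher and 13.0% lower over all genes. Among 9 trophoblast genes Cdx2, a transcription factor of trophectoderm, was 3.08-fold lower (limma adjusted p = 0.00205) and Krt7, a keratin, 1.52-fold higher (adjusted p = 0.0132). The rise of Krt7 was 0.50 on the log2 scale against Dnmt1 KO number 2 alone. Elf5 and Gata3 stayed under 1 RPM in all 8 libraries. Of the neural genes 3 of 5 rose, namely Pax6 (1.35), Tubb3 (0.93) and Ncam1 (0.59), and the list median of 0.59 was 0.38 against Dnmt1 KO number 2 alone and 0.37 with the length relation removed. The summed level of 2 neural markers was 28.8 to 38.5 RPM against 15.9 to 18.3. Tubb3, a tubulin of neurons, was at 5.17, 5.04, 4.74 and 4.83 log2 RPM against 3.98, 4.13, 4.05 and 3.90, and shares its strand with Gm20388. The call of Ncam1 ended without Dicer/Dnmt1 KO 2A (limma adjusted p = 0.0535) and without Dnmt1 KO 2B (0.0517). Its change was 0.38 against Dnmt1 KO number 2 alone. Of 9 mesoderm genes 1 was tested, Hand1, and it did not pass (-0.13).

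Epithelial genes stood at a median of 0.05, with 1 of 13 called, Cldn3 at 0.70, and Cdh1 at 0.11 and Epcam at -0.15 were not. Against Dnmt1 KO number 1 alone the epithelial median was 0.06. In the mesenchymal list 2 of 10 rose, Zeb1 (a repressor of epithelial genes, 0.88) and Fn1 (fibronectin, 0.75), which is near the 14.0% of all genes called higher. The median deviation of this list from the mean of the 8 libraries was 0.35, 0.31, -0.02 and -0.008 in Dicer/Dnmt1 KO. In Dnmt1 KO it was -0.24, -0.07, 0.003 and -0.15. Only the Dicer/Dnmt1 KO libraries of number 1 thus lay above every Dnmt1 KO library. Zeb1 was at 3.50, 3.61, 3.52 and 3.63 log2 RPM against 2.53, 2.78, 2.63 and 2.80 (limma adjusted p = 0.000935). Fn1 was at 9.26, 9.42, 8.63 and 8.62 against 8.01, 7.97, 8.52 and 8.43 (limma adjusted p = 0.0137). The call of Fn1 ended with the length relation removed, with WT in the fit and without the filter on low levels. Fibroblasts used as feeder cells would also express Fn1, and the study's methods allow cultures with or without feeders. Of 20 feeder fibroblast genes 1 rose, Col6a1 (1.06), and the list median was 0.23. That median was 0.26 against Dnmt1 KO number 1 alone and 0.19 against number 2 alone. The feeder list deviated from the mean of the 8 libraries by a median of 0.38, 0.49, -0.12 and -0.23 in Dicer/Dnmt1 KO. The same deviations in Dnmt1 KO were -0.06, 0.02, -0.05 and -0.17. Only in the Dicer/Dnmt1 KO libraries of number 1 were the feeder genes above every Dnmt1 KO library. Their summed markers lay at 71.0 to 127 RPM in Dicer/Dnmt1 KO against 69.4 to 83.6 in Dnmt1 KO, and at 32.4 to 59.5 in WT, with Dcn, Lum and Twist2 under 1 RPM, and their part in the mesenchymal values was not tested.

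DNA methylation genes differed although both groups lacked Dnmt1, with 3 of 15 higher and 4 lower (14.0 and 13.0% over all genes). Dnmt3l, the cofactor of the de novo enzymes, was at 6.40, 6.44, 6.54 and 6.58 log2 RPM against 7.91, 7.75, 7.84 and 7.80 (2.53-fold lower, limma adjusted p = 5.36e-06). Dnmt3b was at 6.06, 6.10, 6.01 and 6.07 against 6.94, 6.93, 7.25 and 7.06 (1.98-fold lower, limma adjusted p = 8.04e-05). All Dicer/Dnmt1 KO values of Dnmt3l were inside the WT range of 6.24 to 7.03, and those of Dnmt3b were at the lower end of its WT range of 6.05 to 6.93 or under it. The glycosylase Tdg (-0.56) and the reader Mbd3 (-0.52) were lower, and the reader Mbd2 (0.52) and the dioxygenase Tet3 (0.83) were among those higher. The 3′ UTR of Tet3 held 3 miR-290 matches. The groups of Tet3 overlapped. Its rise was 0.48 against Dnmt1 KO number 2 alone, and that of Mbd2 was 0.41 against number 1 alone. Dnmt3a (-0.16), Tet1 (0.25), Tet2 (0.33) and Uhrf1 (-0.36) did not pass.

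In TGF-beta and NODAL signalling, 4 of 19 genes rose and 5 fell (14.0 and 13.0% over all genes). The inhibitors Lefty1 (1.43) and Lefty2 (0.71) and the transducers Tgfbr1 (0.51) and Smad3 (0.48) were higher. The ligands Bmp4 (-1.16) and Nodal (-0.43), the NODAL coreceptor Tdgf1 (-0.57) and the BMP targets Id1 (-1.58) and Id3 (-0.79) were lower. The inhibitors Skil (-0.35) and Smad7 (-0.02) and the transducers Smad4 (-0.12), Acvr2a (0.04) and Bmpr1a (-0.09) were among those that did not pass. Id1, an inhibitor of helix-loop-helix factors, was at 1.90, 2.11, 2.24 and 2.64 log2 RPM against 3.98, 3.73, 3.62 and 3.88 (2.99-fold lower, limma adjusted p = 1.48e-05). Bmp4 was at 1.46, 1.88, 1.13 and 1.19 against 2.70, 2.74, 2.16 and 2.72 (2.24-fold lower, limma adjusted p = 0.000952). With WT in the fit 3 genes of the list were higher and 2 lower (676 and 536 of all 12578 genes).

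Of 18 genes of the p53 list, 1 rose, Cdkn1a, and 6 fell (14.0 and 13.0% over all genes). Their median was -0.27. Those that fell were the BH3 gene Pmaip1 (-0.74), Phlda3 (-0.53), Plk2 (-0.51), the nuclease Aen (-0.48), Perp (-0.43) and the p53 ligase Mdm2 (-0.43). Pmaip1 was at 5.03, 5.10, 4.97 and 5.02 log2 RPM against 5.75, 5.94, 5.67 and 5.72 (limma adjusted p = 0.000935). Trp53 itself stood at 0.04. Plk2 was at -0.34 and Perp at -0.42 against Dnmt1 KO number 2 alone. The call of Perp ended without Dnmt1 KO 1B (limma adjusted p = 0.0519). With WT in the fit 3 genes of the p53 list were lower, beside 536 of all 12578 genes. The list median was -0.26 against Dnmt1 KO number 1 alone and -0.23 against number 2 alone. Among 18 apoptosis regulators 3 rose, Ei24 (0.89), Casp2 (0.70) and the BH3 gene Bcl2l11 (0.61), whose 3′ UTR held 3 miR-290 matches. The genes Pmaip1 and Bid (-0.55) fell, and Bid was at -0.47 against Dnmt1 KO number 2 alone. The share of these regulators called was near the 27.0% of all genes.

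Germline genes, many of which are held silent by DNA methylation, had a median of -0.69. Of 23 tested, 14 were lower and 4 higher (13.0 and 14.0% over all genes). Mael, of the piRNA pathway, was at 2.22, 2.19, 1.97 and 1.82 log2 RPM against 3.50, 3.58, 3.33 and 3.48 (2.67-fold lower, limma adjusted p = 3.47e-05). The synaptonemal complex genes Sycp1, Sycp2, Syce1 and Sycp3 fell by 1.75, 1.58, 1.28 and 1.20 on the log2 scale, and the piRNA genes Piwil4, Mael, Mov10l1 and Tdrd5 by 1.53, 1.42, 0.96 and 0.69. Sycp1 was at 1.94, 1.47, 1.46 and 1.70 against 3.33, 3.33, 3.46 and 3.43, with a WT range of -0.28 to 1.69. Not all genes of the list followed. Tuba3a, a tubulin of testis, rose from 3.37, 3.06, 3.00 and 3.26 in Dnmt1 KO to 4.53, 4.74, 4.26 and 4.55 (2.54-fold, limma adjusted p = 1.48e-05), though its near-identical copy makes its level uncertain, and Smc1b (1.20), Stag3 (0.59) and Hormad1 (0.48) rose too. Dazl (-0.30) did not pass. Once WT joined the fit, 3 were higher and 8 lower (676 and 536 of all 12578 genes). The list median was -0.67 against Dnmt1 KO number 1 alone and -0.74 against number 2 alone.

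Few genes of double-stranded RNA sensing and the interferon response were above the filter, 13 of 31. Of these 3 rose and 0 fell (14.0 and 13.0% over all genes), and the median was 0.37. Irf9, of the interferon-stimulated transcription complex, was at 3.37, 3.18, 3.30 and 3.42 log2 RPM against 2.26, 2.29, 2.40 and 2.31 (2.00-fold higher, limma adjusted p = 0.000482). Its reads lie beside those of Rnf31, which overlaps it on the same strand. Ifitm3, a membrane protein that limits virus entry, was at 5.58, 5.75, 5.72 and 5.60 against 4.95, 4.99, 4.80 and 4.76 (1.73-fold higher, limma adjusted p = 0.000602). The adaptor Mavs rose by 0.54, a call that ended without Dnmt1 KO 2B (limma adjusted p = 0.0661). Against Dnmt1 KO number 2 alone its rise was 0.50. Stat2 (0.37), Eif2ak2 (0.38), Ddx58 (0.32) and Adar (-0.25) did not pass.

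Glycolysis genes were lower in 8 of 19 and higher in 1 (13.0 and 14.0% over all genes), with a median of -0.33. The lactate and pyruvate carriers Slc16a3 and Slc16a1 fell by 0.99 and 0.77 on the log2 scale, and the enzymes Ldha, Pgk1, Pgam1, Pkm2 and Eno1 by 0.78, 0.71, 0.57, 0.52 and 0.46. Slc16a3 was at 4.55, 4.63, 4.72 and 4.93 log2 RPM against 5.75, 5.75, 5.59 and 5.69 (limma adjusted p = 0.000104). Ldha, which makes lactate, ran from 7.93 to 8.24 against 8.95, 8.92, 8.75 and 8.82 (limma adjusted p = 0.0016). The glucose carrier Slc2a1 fell by 0.53. Hk1, a hexokinase, rose by 0.60, while Hk2 (-0.06), Gapdh (-0.39) and Aldoa (-0.22) did not pass. Several glycolytic genes have many near-identical pseudogenes, which can take their reads under a filter on mapping quality, and their levels are uncertain for that reason. In the fit with WT 3 glycolysis genes were lower, beside 536 of all 12578 genes. After quantile normalization 1 was higher and 5 lower, with a median of -0.17 (1587 and 1616 of all 12578 genes).

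Short, abundant transcripts shifted with the choice of control. Against both control numbers together, 14.0% of all genes were higher and 13.0% lower. Of 82 genes of cytosolic ribosomal proteins 35 were lower and 0 higher, with a median of -0.42. That median was -0.59 against Dnmt1 KO number 1 alone and -0.25 against number 2 alone. The count of lower genes was 12 once the relation with transcript length was taken out, 9 after quantile normalization and 1 with WT in the fit. Over all genes these fits called 1491, 1616 and 536 lower. Rpl9 was at 6.02, 5.94, 6.61 and 6.58 log2 RPM against 7.44, 7.09, 6.95 and 7.15 (limma adjusted p = 0.00157). Rpl22l1, called lower, had groups that overlapped, and its call ended without Dicer/Dnmt1 KO 2B (adjusted p = 0.0524) or Dnmt1 KO 2B (0.0603). Of 62 histone genes 3 were lower, the germ line variants Hist1h2aa, Hist1h1t (-1.45) and Hist1h2ba (-1.17), and the list median was -0.19. That median was -0.44 against Dnmt1 KO number 1 alone and 0.09 against number 2 alone. Ribosomal protein and histone genes exist in near-identical copies, and their counts are uncertain as well.

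**Figure D4:**
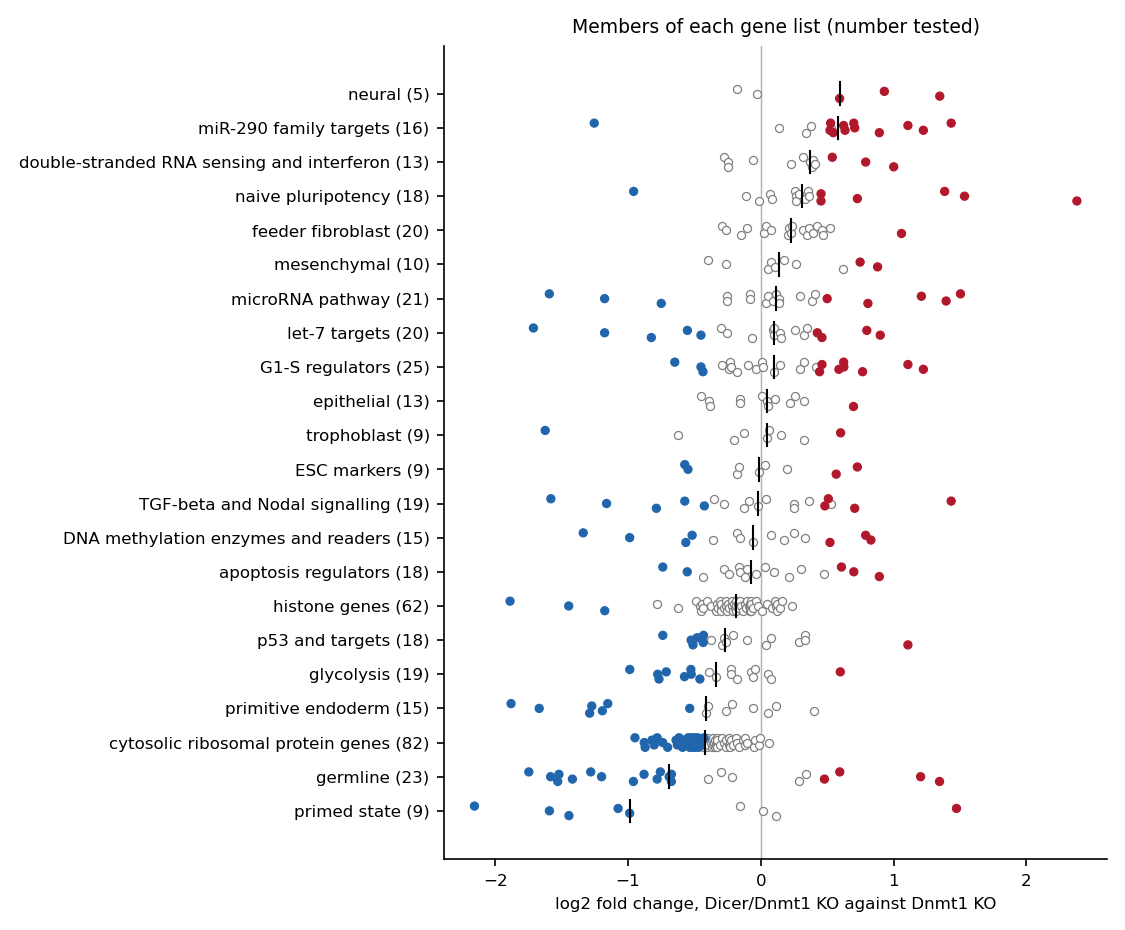
Log2 fold change (Dicer/Dnmt1 KO against Dnmt1 KO) of each tested gene in 22 gene lists, with genes called higher in red, genes called lower in blue, other genes open, and a black bar at the list median. The medians run from -0.99 for the primed state and -0.69 for germline genes to 0.58 for miR-290 family targets and 0.59 for neural genes, the last over 5 genes.

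The change was related to the length of the transcript. Across 12557 genes with an annotated length Spearman's rho of the log2 fold change with length was 0.36, given as a description since all genes share the same libraries. The median log2 fold change was -0.30 for transcripts under 1 kb, -0.20 for 1 to 2 kb, -0.04 for 2 to 4 kb, 0.14 for 4 to 8 kb and 0.31 for those over 8 kb. The share called higher went from 3.32 to 35.5% over these classes and the share called lower from 28.4 to 3.65%.

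The relation differed between libraries. Deviations are taken from the mean of the same 8 libraries and mirror each other between the groups, so that the part of each group cannot be told apart. The rho of a library's deviation with length was 0.34, 0.33, 0.21 and 0.25 in Dicer/Dnmt1 KO and -0.48, -0.42, -0.05 and -0.13 in Dnmt1 KO, so that the libraries of Dnmt1 KO number 1 had the strongest relation and those of number 2 the weakest. With the relation removed by a lowess curve, 3095 of 12557 genes were called, 1604 higher and 1491 lower. Of these, 2487 were also called without the removal. For the miR-290 family targets the counts were then 12 higher and 1 lower and for germline genes 4 and 14. Other lists moved, with 2 genes higher and 5 lower in TGF-beta and NODAL signalling, 8 higher and 1 lower in the naive state, and 3 higher in the epithelial list, while the histone genes went to 3 higher and 2 lower with a median of 0.12. The part that RNA quality, library preparation or culture had in the length relation was not tested.

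**Figure D5:**
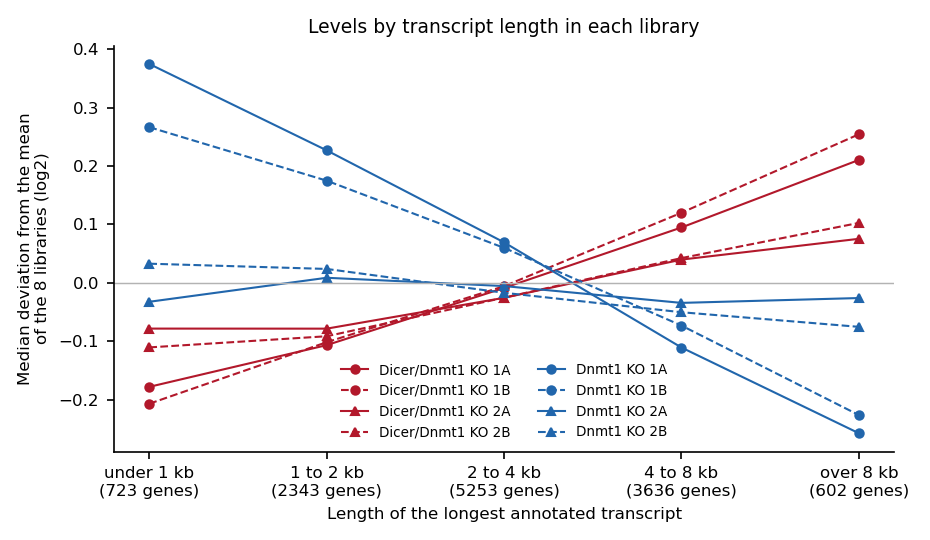
Median deviation (log2 RPM) of genes from their mean over the 8 libraries, in 5 classes of transcript length, with a line for each library. Since that mean is shared, the lines mirror each other in part. The Dnmt1 KO lines of number 1 fall from 0.37 and 0.27 in transcripts under 1 kb to -0.26 and -0.23 in those over 8 kb, the Dicer/Dnmt1 KO lines rise, and those of Dnmt1 KO number 2 stay between -0.08 and 0.03.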

How the data were processed

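Total RNA of ESCs was sequenced by the authors as stranded, ribosome-depleted 100 bp paired-end libraries, trimmed with Trim Galore 0.3.5 and mapped with TopHat2 2.0.11 to NCBIM37, and reads with mapping quality under 20 were discarded. Values were quantified per gene in SeqMonk and deposited by the authors as log2 RPM, and both NCBIM37 and GRCm38 appear in the submitters' processing notes. Low values of every library were whole multiples of 1 read (100% within 0.02 reads, up to 200 reads), and genes without reads were written as 0.9 reads. A further 35 value columns belong to other samples and were not used.

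Genes above 0 log2 RPM in at least 4 of the 8 libraries were tested with limma 3.58.1 (R 4.3.3) with an intensity trend, after averaging A and B of a number, and called at a Benjamini-Hochberg adjusted p under 0.05 over 12578 genes. The fitting code was tested on simulated data. The genes named were Dicer1, Dnmt1, the 12 most changed genes in each direction that were called, did not overlap between groups averaged at least 1 log2 RPM in the higher group and had a symbol of a characterised gene, and up to 6 of the most changed called members of each list. Further list members stand as examples of their list. Members and lists were chosen with earlier results of these data known. Of the 120 named genes 31 overlap another annotated gene, 4 of them on the same strand. GENCODE M1 (NCBIM37) gave lengths and 3′ UTRs of the longest transcript, matching 26068 genes by coordinates and 28 by symbol, with 31 unmatched. Python 3.11.15 with pandas 2.3.3 and numpy 2.4.6 was used for the summaries. The alternatives were other treatments of replicates, filters, scalings and controls.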

Additional observations from a re-analysis of the deposited data

Results flagged for a closer look

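Over 246 groups of 4 libraries, 11 (4.47%) had 1 library far from the other 3, and chance alone gives about 1 in 20. Most were in Dnmt1 KO. Values are in log2 RPM.

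In Dnmt1 KO 1B, Lrrc31 was at -0.25 with the others between -1.89 and -1.87. Gbx2 was at 4.68 in the same library, above 4.54 to 4.56. In Dnmt1 KO 1A, Sox17 was at 0.45, below 1.42 to 1.56, Casp2 at 3.61, below 3.77 to 3.81, and Pou5f1 at 8.63, above 8.37 to 8.41. In Dnmt1 KO 2A, Nlrp4c was at 2.14, above 1.54 to 1.60, Slc25a31 at 0.87, above 0.20 to 0.28, and Bmp4 at 2.16, below 2.70 to 2.74. Krt7 in Dnmt1 KO 2B was at 3.31, above 2.87 to 2.92.

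In Dicer/Dnmt1 KO, Mbd2 was at 4.24 in 2B, above 4.09 to 4.10, and Gapdh was at 2.63 in 1B, below 2.83 to 2.86. No test of a cause was made for any of these values.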

How the results depend on the processing

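The fall of Dicer1 passed limma under every alternative with more than 1 control value. It ran from -1.69 to -1.50 on the log2 scale when each library was left out in turn, and Dnmt1 stayed uncalled between 0.12 and 0.22. The count of genes changed, 3394, was 2853 to 3499 with each library left out, 6012 with every library as a replicate, 1212 with WT in the fit, 218 of 20880 genes without the filter on low levels, and 571 with a minimum change of 2-fold. The count of list members called, 115 in the 21 lists other than histone and ribosomal protein genes, was 108 to 114 with each library left out, 62 with WT in the fit, 15 without the filter and 40 with the 2-fold minimum. Of the 107 named genes called, none reversed under any alternative, 73 kept their call with WT in the fit and 22 without the filter.

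Numbers are shared by the groups, but same-numbered values did not deviate together (correlation of deviations -0.241). With 2 values a group this correlation cannot show what else a number stands for, which was not tested. A replicate block by number called 2948 genes (1580 higher, 1368 lower). Crossed pairing of the numbers, chosen after seeing the data, called 4574.

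The median difference of genes with and without a seed match depended on length and control, the controls of 1 number being chosen after seeing the data. For miR-290 it was 0.22, 0.11 with the length relation removed and 0.26 against Dnmt1 KO number 1 alone. For miR-17 it was 0.26, 0.14 with length removed, 0.29 and 0.22 against numbers 1 and 2, and 0.15 with matches to 6 letters. For let-7 it was 0.08, -0.0035 with length removed, 0.14 and 0.047 against numbers 1 and 2, and for miR-15/16 it was 0.10, then -0.024, 0.14 and 0.054. With a library left out these differences were 0.22 to 0.23, 0.24 to 0.27, 0.07 to 0.09 and 0.09 to 0.11.

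Uncalled genes near 0 changed sign. Dgcr8 (0.05) was at -0.048 with letter A alone, -0.054 with length removed, -0.040 against Dnmt1 KO number 2, and -0.019 to 0.12 with a library left out. Trp53 (0.04) was at -0.045 against number 1 and -0.025 to 0.11 with a library left out. With length removed Pou5f1 was at 0.036 and Lin28b at -0.070, and Cdh1 was at -0.11 against number 2. The causes were not tested. Depth limits genes near 3 reads, such as Napsa.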

Other observations

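The difference between Dicer/Dnmt1 KO and Dnmt1 KO was spread over the chromosomes. The median log2 fold change of a chromosome with more than 100 tested genes went from -0.08 on chromosome 12 to 0.04 on chromosome 1, and the share of genes called went from 23.3% on chromosome 7 to 30.1% on chromosome 18. The 13 mitochondrial genes tested had a median of 0.27, with 2 called higher (15.4%, beside 14.0% over all genes). Their median deviations overlapped between the groups. These were 0.49, 0.60, -0.11 and -0.20 in Dicer/Dnmt1 KO and -0.63, 0.26, -0.13 and -0.19 in Dnmt1 KO. Genes with 11 or more exons had a median of 0.11 and those with 2 to 5 exons -0.14, and exon number goes with transcript length. Among the 592 genes above 7 log2 RPM on average 26 were called higher and 126 lower, while among the 1287 genes under 1 log2 RPM 157 were higher and 136 lower.

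A split of the miR-290 matches by the 3 letters before them was chosen after the values were seen. The 179 genes whose matches all followed CCC had a median log2 fold change of 0.02, and 18.4% were called higher. The 1775 genes with at least 1 match not after CCC had a median of 0.20, and 29.6% were called higher. The median UTR lengths of these sets were 2289 and 2314 bases. No test of this difference was made.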
